A study of Mus musculus with 6 samples.

Results

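Open chromatin at the promoters of noncoding RNA genes was examined in primary mouse lung fibroblasts cultured on surfaces of different stiffness. A promoter region belonged to the set when its deposited annotation placed it at a transcription start site (TSS) and its gene type was neither protein-coding, pseudogene nor blank. The annotated transcript could still be that of a protein-coding gene. This was so for 9 of 38 and 6 of 40 regions listed in the first 2 comparisons below, Rmrp and Tug1 among them. The share over the whole set is not given here. Of 64217 accessible regions, 671 met this rule, or 1.04%. They lay at 606 genes, of which 544 had 1 region, 59 had 2 and 3 had 3. The deposited gene type was ncRNA for 659 regions, snoRNA for 7, snRNA for 4 and rRNA for 1. The rule chose regions by this same type, so the tally is no check of the label. RefSeq types 547 of the 671 regions as long noncoding RNA, 96 as microRNA and 8 as protein-coding genes. For microRNA genes such as Mir210 and Mir34a, the annotated start is the edge of the hairpin that holds the microRNA. That edge need not be where transcription begins.

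GFP-positive fibroblasts had been sorted out of lungs of Col1a1-GFP transgenic mice, a line in which GFP marks cells with an active type I collagen promoter. They were held for 8 days in medium with 10% serum on plastic, on 32 kPa silicone (PDMS) or on 0.2 kPa PDMS, each coated with collagen I. Omni-ATAC-seq, which maps open DNA by the cuts of a transposase, was run on 50000 cells per library, with 2 libraries per culture and 6 in all. All groups carry the reporter and all had left the lung for culture, so none shows the cells as they were in the tissue. Whether both libraries of a culture go back to different animals is not in the labels. The authors' p-values therefore cover the spread among the libraries compared, 2 per culture, which may be technical.

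Levels are the authors' log2 values of normalised reads per region, averaged by culture. The files give a level for each culture and not for each library, so no spread can be put beside a level, and depth is unknown. Among cell type markers, 7 of 8 fibroblast genes had an accessible promoter region, with a median level of 5.27 on plastic and 4.88 on 32 kPa, and Lum had none. Promoter regions were listed for 0 of 6 epithelial, 0 of 5 leukocyte and 0 of 3 mesothelial markers. Of 5 endothelial markers, Kdr and Tek had one, at 3.02 to 3.71 on plastic and 3.08 to 3.13 on 32 kPa, and of 4 pericyte and smooth muscle markers Myh11 had one, at 5.45 on plastic and 5.25 on 32 kPa.

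Noncoding RNA genes yield RNAs that act without being translated. Long noncoding RNAs can silence or organise chromatin, microRNAs pair with messenger RNAs through a short seed, and small nuclear, nucleolar and related RNAs form the core of enzymes that splice, cut or modify other RNAs. Many long noncoding RNAs start beside a protein-coding gene and run the opposite way, so that 1 open region can serve both starts. An open promoter commonly goes with transcription but is not itself a measure of RNA.

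The promoters below are those of Dnm3os, Airn, Tug1 and Dancr, long noncoding RNA genes with names and known roles whose regions were listed as more accessible on a stiffer culture. They are shown so that the bases around these starts can be read, and they come from RefSeq on GRCm38.p6, 250 bases before to 50 after the start. Each listed region runs beyond its printed window, and that of Tug1 is centred outside it. Dnm3os is at chr1:162217373-162217672 on the plus strand, Airn at chr17:12741061-12741360 on the plus strand, Tug1 at chr11:3648765-3649064 on the minus strand and Dancr at chr5:74092810-74093109 on the plus strand. Capitals mark matches, on either strand, to any of 8 short motifs. These are the TATA motif TATAAA, the NF-Y motif CCAAT, the GC box GGGCGG bound by Sp1, the AP-1 motif TGANTCA with N for any base, the TEAD motif GGAATG, the cAMP response motif TGACGTCA, the E-box CACGTG and the CArG box.
Dnm3os: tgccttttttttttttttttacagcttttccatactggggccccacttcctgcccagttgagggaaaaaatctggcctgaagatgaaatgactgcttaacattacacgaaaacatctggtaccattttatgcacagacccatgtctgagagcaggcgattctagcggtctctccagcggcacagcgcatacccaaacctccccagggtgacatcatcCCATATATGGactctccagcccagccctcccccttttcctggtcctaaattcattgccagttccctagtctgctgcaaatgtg
Airn: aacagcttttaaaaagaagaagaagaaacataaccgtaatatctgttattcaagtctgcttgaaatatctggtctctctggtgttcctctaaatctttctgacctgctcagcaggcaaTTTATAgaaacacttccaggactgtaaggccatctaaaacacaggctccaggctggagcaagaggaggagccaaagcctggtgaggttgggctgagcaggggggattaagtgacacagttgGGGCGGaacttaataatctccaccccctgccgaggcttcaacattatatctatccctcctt
Tug1: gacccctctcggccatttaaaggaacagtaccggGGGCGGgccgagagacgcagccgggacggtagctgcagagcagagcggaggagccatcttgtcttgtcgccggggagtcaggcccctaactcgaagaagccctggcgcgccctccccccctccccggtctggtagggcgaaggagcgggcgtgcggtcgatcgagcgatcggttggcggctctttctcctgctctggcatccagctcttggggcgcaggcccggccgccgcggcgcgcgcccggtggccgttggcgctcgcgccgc
Dancr: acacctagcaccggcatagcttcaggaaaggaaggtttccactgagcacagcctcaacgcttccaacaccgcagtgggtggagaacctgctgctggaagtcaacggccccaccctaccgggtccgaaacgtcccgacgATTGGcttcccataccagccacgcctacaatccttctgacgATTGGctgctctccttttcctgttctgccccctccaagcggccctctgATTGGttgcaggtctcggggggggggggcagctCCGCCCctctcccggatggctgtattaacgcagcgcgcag

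In the Dnm3os promoter the capitals are a CArG box, the sequence bound by serum response factor, at -33 to -24 from the start. It was the one match to the 8 motifs in that window. Airn held the TATAAA motif read on the minus strand at -132 to -127, and GGGCGG, the GC box, at -11 to -6. Tug1 held 1 GC box at -216 to -211. Dancr held CCAAT on the minus strand 3 times, at -112 to -108, -71 to -67 and -23 to -19, and a GC box on the minus strand at 10 to 15. The GC content was 48.7% for Dnm3os, 45.7% for Airn, 71.3% for Tug1 and 61.3% for Dancr.

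Mature microRNAs that belong with the regions described below are printed 5′ to 3′ from RefSeq with the seed, bases 2 to 8, in capitals. The miR-199a and miR-214 pairs are cut from Dnm3os itself, miR-1938 and miR-5133 are from microRNA genes listed as more accessible on a stiffer culture, and miR-210 is from the microRNA gene among the 10 highest promoter levels. No 2 of these arms share a seed.
miR-199a-5p: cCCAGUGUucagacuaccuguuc
miR-199a-3p: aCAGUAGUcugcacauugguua
miR-214-5p: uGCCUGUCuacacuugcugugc
miR-214-3p: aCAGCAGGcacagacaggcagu
miR-1938: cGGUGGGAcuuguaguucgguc
miR-5133: gCUGGAGCugcggcagcgcag
miR-210-3p: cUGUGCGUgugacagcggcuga

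The first comparison asked which of these promoters were more open on 32 kPa than on 0.2 kPa. In the authors' deposited table, a region is listed when its log2 fold, 32 kPa minus 0.2 kPa, is at least 1 with an FDR of at most 0.05, and all 2121 listed regions were higher on 32 kPa. Of the 671 noncoding RNA promoters, 38 were listed, at 38 genes. None of the 344 regions below 4.97 on 32 kPa, the lowest level of any listed region, was listed. Of the other 327, 38 were listed, or 11.6%. The cut at 4.97 was read from the list itself, since the rule on fold and FDR sets no minimum level. The shares given here depend on this cut. Below, high enough to be listed means at or above the lowest listed level on the stiffer culture of a comparison. The background was 12.5% of all 17026 regions at or above 4.97, and 13.1% of 7047 protein-coding promoters. The share among noncoding RNA promoters was thus close to the background and shows nothing particular to them. Whether more cells had an open region or each cell's region was open more often cannot be told apart in bulk libraries.

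Among the 38, the level per region ran from 5.11 to 7.97 on 32 kPa, with a median of 6.36, and from 3.64 to 6.83 on 0.2 kPa, with a median of 5.28. The median log2 fold in the authors' deposited table was 1.10, a linear ratio of 2.14, against 1.08 for 923 listed protein-coding promoters and 1.12 for all listed regions. The widest gap belonged to Snord2, a small nucleolar RNA that guides methylation of ribosomal RNA and is carried in Eif4a2, the gene of a translation helicase. Its region at chr16:23108167-23108389 had a level of 5.11 on 32 kPa and 3.64 on 0.2 kPa, a log2 fold of 1.47 with an FDR of 0.0236 in the authors' deposited table. It lay 675 bases upstream of the Snord2 start and 810 bases from the Eif4a2 start.

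Airn, the long noncoding RNA that silences Igf2r on the paternal chromosome, had the third widest gap. The level at chr17:12741200-12741397 was 5.27 on 32 kPa and 3.94 on 0.2 kPa. The log2 fold in the authors' deposited table was 1.33 with an FDR of 0.0235. The region sat over the Airn start, centred 13 bases upstream of it, with its centre in the promoter printed above and its end beyond it.

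Dnm3os, which runs antisense within Dnm3 and carries miR-199a and miR-214, microRNAs studied in fibroblasts that respond to transforming growth factor beta, was centred 4 bases upstream of its start. The region chr1:162217413-162217825 had a level of 6.27 on 32 kPa and 5.14 on 0.2 kPa. In the authors' deposited table its log2 fold was 1.13 with an FDR of 0.0115. The CArG box printed above lies inside this region, and the last 12 bases of the region reach into the 110-base hairpin of Mir199a-2. Mir214 lies further along the same transcript.

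Among RNAs of the basic machinery, Rmrp, the RNA of the enzyme that cuts precursor ribosomal RNA, had a level of 6.14 on 32 kPa and 5.04 on 0.2 kPa. Its log2 fold in the authors' deposited table was 1.10 with an FDR of 0.0132. The region was annotated to a transcript of a protein-coding gene, and the start of Ccdc107 lay 425 bases from its centre. Vaultrc5, a vault RNA, had 6.66 on 32 kPa and 5.59 on 0.2 kPa, a log2 fold of 1.06 with an FDR of 0.0061 in the authors' deposited table.

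Carmn, host of miR-143 and miR-145 and known from smooth muscle, had 2 promoter regions, of which 1 was listed. Its level was 6.87 on 32 kPa and 5.84 on 0.2 kPa, and the authors' deposited table gave a log2 fold of 1.03 with an FDR of 0.00503. The second region, centred 968 bases upstream, had a level of 6.28 on plastic and 6.45 on 32 kPa and was in neither list.

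Of the microRNA genes, Mir3107 had a level of 5.88 on 32 kPa and 4.78 on 0.2 kPa, a log2 fold of 1.10 and an FDR of 0.0232 in the authors' deposited table. Mir1938 had 6.99 on 32 kPa and 5.93 on 0.2 kPa, a log2 fold of 1.06 and an FDR of 0.00339 in the authors' deposited table. Its region and that of the predicted gene Gm7008 stood on either side of the start of Ifrd1, at 565 and 172 bases from it. Gm7008 had 7.97 on 32 kPa and 6.83 on 0.2 kPa, with a log2 fold of 1.14 and an FDR of 0.000586 in the authors' deposited table.

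Most of the 38, 29 regions, belonged to genes known only by a clone or predicted name. So did 236 of the 327 regions high enough to be listed on 32 kPa, so nothing particular to the list is read from this. Within 1000 bases of a protein-coding start lay 20 of the 36 listed regions that could be checked, 55.6, and 13 were within 250 bases. Of the 317 noncoding RNA promoters placed and high enough on 32 kPa to be listed, 45.1 had such a start within 1000 bases. The lowest FDR among the 38 was that of 2700012I20Rik, 0.000419 in the authors' deposited table, with a level of 7.82 on 32 kPa and 6.64 on 0.2 kPa, a log2 fold of 1.18. Its region was centred 246 bases from the start of Sin3a, a corepressor scaffold. Gm7467, 50 bases from Clock, the circadian transcription factor, had 5.88 on 32 kPa and 4.81 on 0.2 kPa, with a log2 fold of 1.07 and an FDR of 0.0247 in the authors' deposited table. For 4930483J18Rik, 148 bases from Mrtfa, the actin-regulated partner of serum response factor, the levels were 6.69 on 32 kPa and 5.69 on 0.2 kPa, with a log2 fold of 1.01 and an FDR of 0.0136 in the authors' deposited table. At such shared regions the openness cannot be assigned to either gene.

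The remaining regions among the 20 widest gaps were also above 0.2 kPa by a log2 fold of 1.09 to 1.37 in the authors' deposited table. They were 1700113A16Rik, Gm5144, 9230116N13Rik, 4930449E18Rik, 4931408D14Rik, Gm13427, 1700112J16Rik, 8430429K09Rik, Gm2716, Gm12108, 5830454E08Rik, C230035I16Rik and 5430402O13Rik. The first of these, 1700113A16Rik, had a level of 6.29 on 32 kPa and 4.92 on 0.2 kPa. 5430402O13Rik, 131 bases from the start of Cycs, the gene of cytochrome c, had 6.71 on 32 kPa and 5.63 on 0.2 kPa. FDR was not set by level and gap alone: A230056J06Rik, with 6.83 on 32 kPa and 5.75 on 0.2 kPa, had an FDR of 0.0474 in the authors' deposited table, against 0.00491 for 5430402O13Rik.

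**Figure D1:**
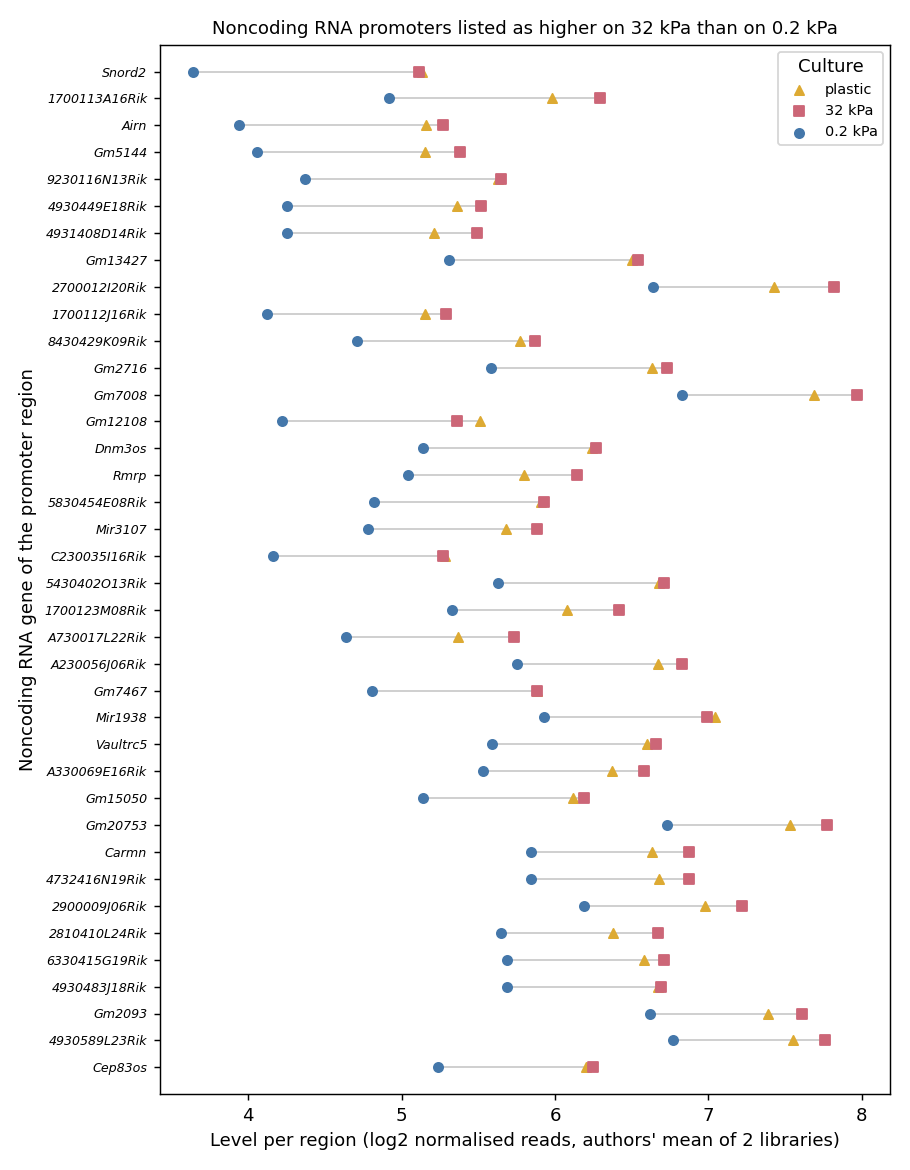
Level per region (horizontal axis, log2 normalised reads, the authors' mean of 2 libraries) on plastic, 32 kPa and 0.2 kPa for the 38 noncoding RNA promoter regions listed as higher on 32 kPa than on 0.2 kPa, 1 row per region in order of fold. Snord2, in the top row, lies at 5.11 on 32 kPa and 3.64 on 0.2 kPa, and on plastic each region lies at least 0.73 above its own 0.2 kPa level. That 0.2 kPa level also took part in choosing the regions, so part of the gap is set by that choice.

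The second comparison asked the same of plastic and 0.2 kPa. In the authors' deposited table, 40 noncoding RNA promoter regions at 39 genes were among 2114 regions listed as higher on plastic. They overlapped 38 of the 339 regions of the full table at or above 4.94 on plastic, the lowest listed level, or 11.2%. The background was 11.7% of 18002 regions, and 10.8% of 7264 protein-coding promoters. Here too the share was near the background. The 40 regions had a median level of 5.76 on plastic and 4.69 on 0.2 kPa. Their median log2 fold in the authors' deposited table was 1.08, the same as the 1.08 of 781 listed protein-coding promoters.

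The nuclear long noncoding RNA Tug1 was listed on plastic and not on 32 kPa. Its region at chr11:3648930-3649304, centred 303 bases upstream of the start, had a level of 5.50 on plastic and 4.32 on 0.2 kPa. The log2 fold in the authors' deposited table was 1.18 with an FDR of 0.0316. On 32 kPa its level was 5.35, which is also above the 0.2 kPa level, and the direct comparison of plastic with 32 kPa gave it an unadjusted p of 0.775 in the authors' deposited table. The start of Morc2a was 320 bases from the centre, and like the Tug1 start it lay outside the region itself.

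Of the small nucleolar RNA hosts, Dancr, named for its role against differentiation, had 6.26 on plastic and 5.19 on 0.2 kPa, with a log2 fold of 1.07 and an FDR of 0.00778 in the authors' deposited table. Snhg3 had 5.48 on plastic and 4.46 on 0.2 kPa, with a log2 fold of 1.02 and an FDR of 0.0451 in the authors' deposited table. On 32 kPa the levels were 6.19 for Dancr and 5.19 for Snhg3. No protein-coding start lay within 1000 bases of either region.

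Rpph1, the RNA of ribonuclease P, which trims transfer RNA precursors, had 6.91 on plastic and 5.86 on 0.2 kPa. Its log2 fold was 1.05 with an FDR of 0.00246 in the authors' deposited table. The start of Parp2, a DNA repair gene, was 158 bases from the centre of the region. Rmrp, the related RNA described above, stood at 5.80 on plastic and was not in this list.

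On plastic 2 microRNA genes were listed, Mir1938, at 7.05 on plastic and 5.97 on 0.2 kPa, and Mir5133, at 6.89 on plastic and 5.71 on 0.2 kPa. The log2 fold in the authors' deposited table was 1.07 for Mir1938, with an FDR of 0.000933, and 1.17 for Mir5133, with an FDR of 0.000364. The Mir5133 region, chr9:62122544-62122918, covered 51 of the 77 bases of the hairpin and lay 122 bases from the start of Glce, an enzyme of heparan sulfate synthesis. The lowest FDR of the 40 was 0.000229 in the authors' deposited table, at Gm44505, with 7.25 on plastic and 6.18 on 0.2 kPa.

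Other regions among the 20 widest gaps on plastic included 1810058I24Rik, Gm6093, 5033403F01Rik, C330018A13Rik, 1600019K03Rik, 1700086L19Rik, 2310034G01Rik and 4930520O04Rik. Their log2 folds ran from 1.09 to 1.21 in the authors' deposited table. C230035I16Rik had 2 regions among the 20, 1 on each side of its start. The upstream one was in both lists and the one 74 bases downstream, at 5.23 on plastic and 4.11 on 0.2 kPa, was in this list alone. RefSeq counts 1810058I24Rik and Btbd19 as protein-coding, and without such genes 38 of the 40 regions were left. A protein-coding start lay within 1000 bases of 14 of the 37 listed regions that could be checked, 37.8, and within 250 bases of 7. Both counts include 1810058I24Rik, whose nearest coding start, at 56 bases, is its own. Of the 326 noncoding RNA promoters placed and high enough on plastic, 45.7 had one within 1000 bases.

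**Figure D2:**
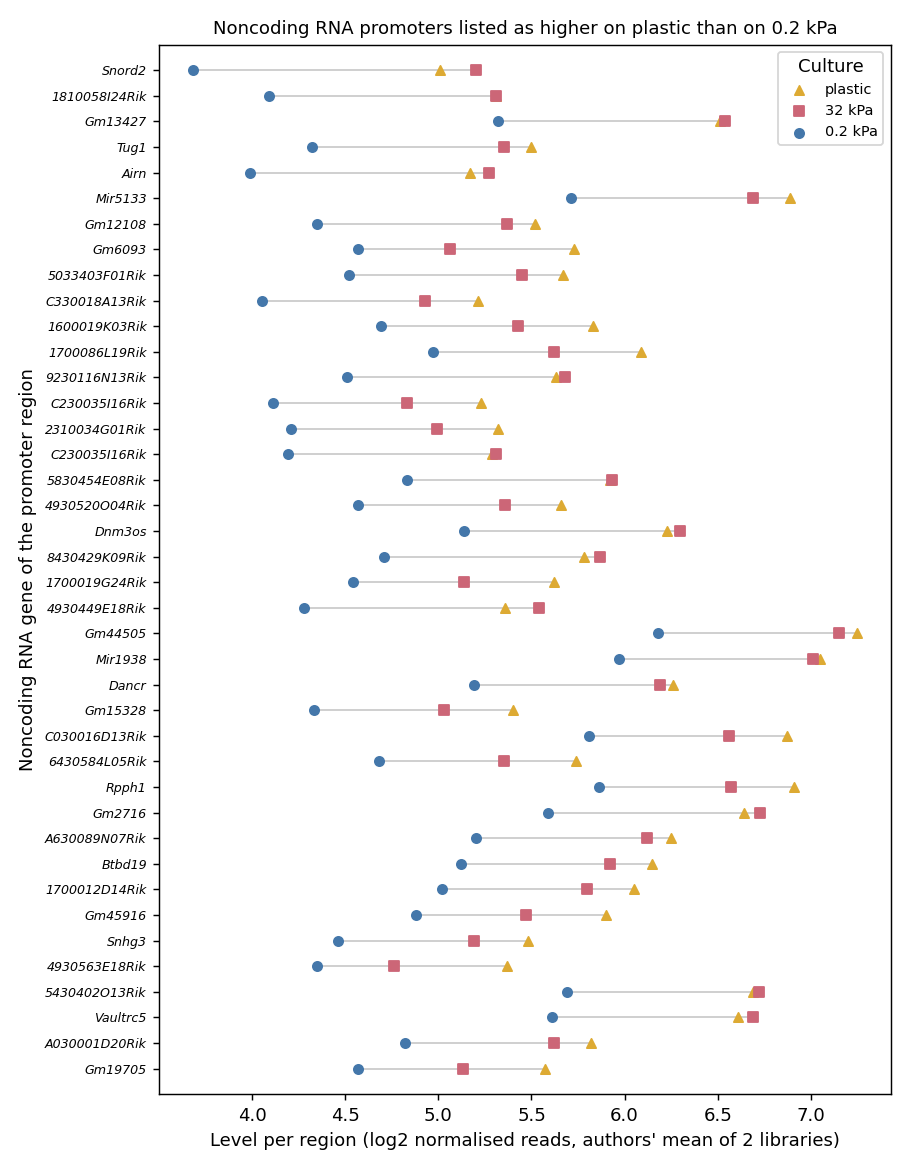
Level per region (horizontal axis, log2 normalised reads, the authors' mean of 2 libraries) on plastic, 32 kPa and 0.2 kPa for the 40 noncoding RNA promoter regions listed as higher on plastic than on 0.2 kPa, 1 row per region in order of fold. Each 32 kPa level lies at least 0.41 above the 0.2 kPa level of the same region, which also took part in choosing it, so part of the gap is set by that choice.

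The lists from the 2 comparisons share the 0.2 kPa libraries, so their overlap is a description. It held 14 regions, 36.8% of the 38 listed on 32 kPa and 35.0% of the 40 listed on plastic. Of all listed regions, 32.1% of those on 32 kPa and 32.2% of those on plastic were in the other list. The 14 genes were Snord2, Airn, Dnm3os, Vaultrc5, Mir1938, Gm13427, Gm2716, Gm12108, 9230116N13Rik, 4930449E18Rik, 8430429K09Rik, 5830454E08Rik, C230035I16Rik and 5430402O13Rik. In the plastic comparison Snord2 had 5.01 on plastic and 3.68 on 0.2 kPa, a log2 fold of 1.33 with an FDR of 0.0334 in the authors' deposited table. Airn had 5.17 on plastic and 3.99 on 0.2 kPa, a log2 fold of 1.18 with an FDR of 0.0397 in the authors' deposited table. Dnm3os had 6.23 on plastic and 5.14 on 0.2 kPa, a log2 fold of 1.08 with an FDR of 0.00906 in the authors' deposited table.

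Being in 1 list did not mean being low on the other stiff culture. The 24 regions listed on 32 kPa alone were 0.73 to 1.09 higher on plastic than on 0.2 kPa on the log2 scale, with a median of 0.85, and 4 of them reached 1. The 26 regions listed on plastic alone were 0.41 to 1.22 higher on 32 kPa than on 0.2 kPa, with a median of 0.77. Of these 26, 3 reached 1 and 2 were under 0.5. These differences set levels from separately made tables side by side and carry no test. The 0.2 kPa level in them also took part in choosing the regions, so part of each gap is set by that choice.

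The third comparison set plastic directly against 32 kPa across all 671 regions. No region of any kind reached an FDR of 0.05 in the authors' deposited table, made with DiffBind, 0 of 64217, a background of 0.0%, and the FDR was 1 for each noncoding RNA promoter. At an unadjusted p under 0.05 there were 2 of 671, or 0.298%, where the background was 370 of all regions, or 0.576%. They were A930003A15Rik, at 2.46 on plastic and 4.17 on 32 kPa with a p of 0.0195 in the authors' deposited table, and B230216N24Rik, at 4.67 on plastic and 3.54 on 32 kPa with a p of 0.0444 in the authors' deposited table. The log2 folds, plastic minus 32 kPa, had a median of -0.02 and quartiles of -0.20 and 0.19 over the 671 regions. The median was -0.01 for 11847 protein-coding promoters and 0.05 for all regions. Folds were above 0 at 315 regions, below 0 at 347 and 0 at 9.

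The extremes were regions of low level. On plastic 4933406F09Rik had a level of 2.08, against -0.16 on 32 kPa, a log2 fold of 2.24 in the authors' deposited table. Gm19303 and 4930412C18Rik followed at 1.55 and 1.48 in the authors' deposited table. In the other direction A930003A15Rik had -1.71, 4931408D14Rik -1.46 and 0610039K10Rik -1.29 in the authors' deposited table. The 4931408D14Rik region in question, centred 60 bases upstream of the start, had 2.35 on plastic and 3.81 on 32 kPa. It was not the stronger region 621 bases upstream, which was listed as higher on 32 kPa than on 0.2 kPa. The median absolute fold was 0.38 where the mean level was under 4, 0.23 from 4 to 5, 0.17 from 5 to 6, 0.12 from 6 to 7 and 0.15 at 7 and over.

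**Figure D3:**
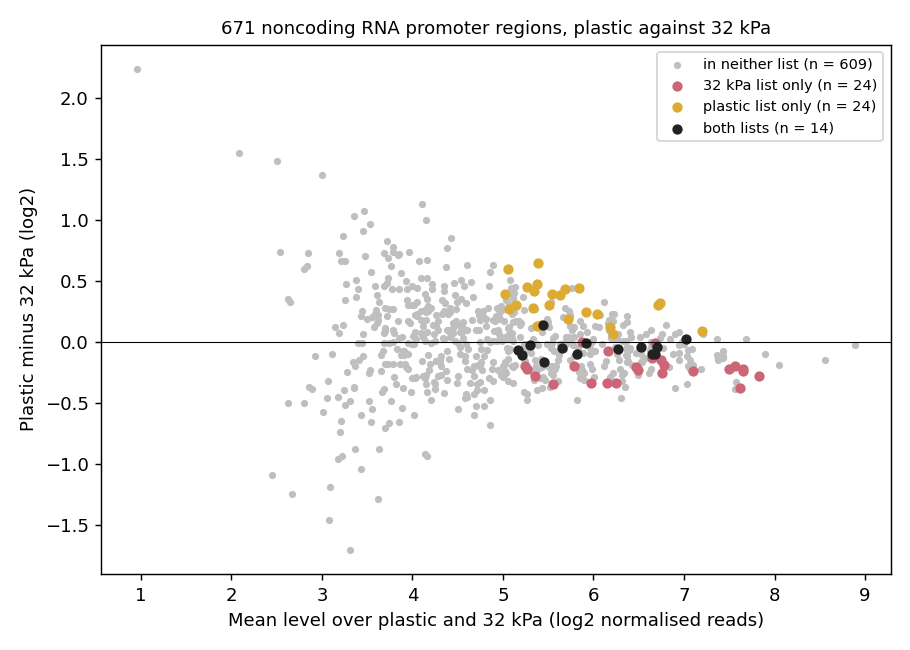
Plastic minus 32 kPa (vertical axis, log2) against the mean level over the same 2 cultures (horizontal axis, log2 normalised reads) for all 671 regions. Colours mark the 62 regions that overlap a listed region; these lie between -0.38 and 0.65, and since each list was chosen on the level of its own stiff culture their side of the 0 line is partly set by that choice.

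The share of regions listed moved with level, and in a different way in each comparison. Of noncoding RNA promoters with a mean level of 5 to 6, 6 to 7, and 7 and over, 8.24%, 13.8% and 22.9% were listed on 32 kPa. On plastic the shares over the same steps were 14.3%, 9.17% and 5.71%. Protein-coding promoters gave 8.78%, 17.1% and 20.2% on 32 kPa, and 10.3%, 12.5% and 9.48% on plastic. The top step held 35 noncoding RNA promoters, of which 8 were listed on 32 kPa and 2 on plastic. The median of plastic minus 32 kPa also fell with level, to -0.15 at noncoding RNA promoters and -0.08 at protein-coding promoters in the top step. The sources used here do not give the scaling of the libraries, and its part in these shares was not tested.

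**Figure D4:**
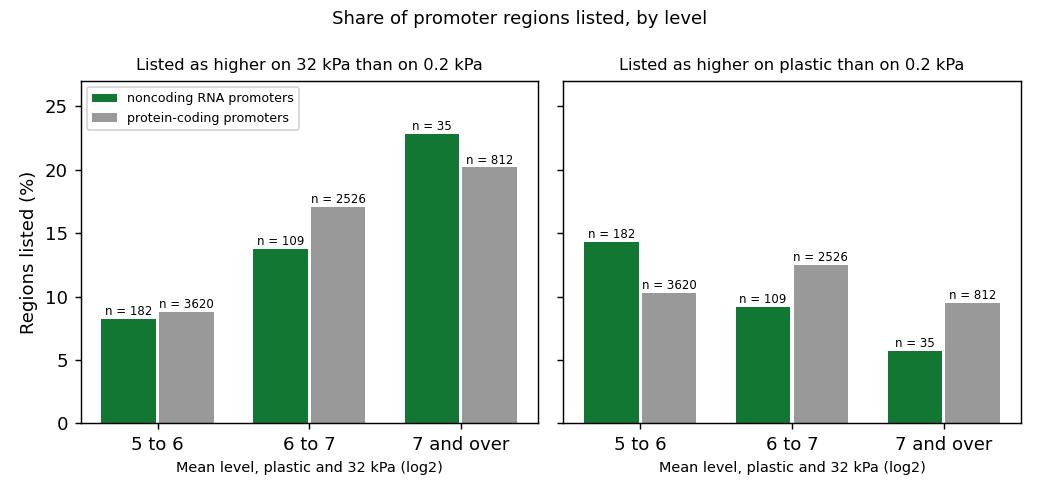
Percentage of promoter regions listed (vertical axis) by mean level over plastic and 32 kPa (horizontal axis, log2 normalised reads) for noncoding RNA promoters (green) and protein-coding promoters (grey), with the number of regions over each bar. On 32 kPa both kinds of promoter are listed more often at higher level, with 22.9% and 20.2% in the top step, and on plastic the noncoding RNA promoters are listed at 14.3%, 9.17% and 5.71%.

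As a set, noncoding RNA promoters had a lower median level than protein-coding ones. The level per 1000 bases of region had a median of 7.10 on plastic and 7.07 on 32 kPa at noncoding RNA promoters. It was 7.27 on plastic and 7.25 on 32 kPa at protein-coding promoters, and 6.83 on plastic and 6.74 on 32 kPa over all regions. The regions were 230 bases wide at the median, against 256 for protein-coding promoters. Their centre was within 100 bases of the start at 363 regions, 54.1%, against 68.4%.

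A protein-coding start lay within 1000 bases of 230 of the 651 regions that could be placed, or 35.3%. Where strand was known for these, 174 of 188 had the noncoding gene on the strand opposite to its neighbour. Among regions with no coding start within 1000 bases, the count was 161 of 282. Level per 1000 bases was higher beside a coding start, with medians of 7.37 on plastic and 7.32 on 32 kPa, against 7.0 on plastic and 6.93 on 32 kPa at the other 421 regions. On 32 kPa 20 of 143 regions beside a coding start and high enough to be listed were listed, 14.0%, against 16 of 174 without one, 9.20%. On plastic it was 12 of 149, 8.05%, against 23 of 177, 13.0%. These counts are of regions of the full table that overlap a listed one. The 2 kinds of region differ in level, and the part of level in these shares was not tested.

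The 10 noncoding RNA promoters of highest level per region were 4932412D23Rik, 1110020A21Rik, 4930526I15Rik, 1700028E10Rik, Gm7008, 9330111N05Rik, 4930589L23Rik, Gm20753, 2700012I20Rik and Mir210. The first 2 were also the widest of the 10, at 1042 and 1039 bases. Per 1000 bases 4932412D23Rik stood at 8.81 on plastic and 8.84 on 32 kPa, Gm7008 at 8.88 on plastic and 9.16 on 32 kPa, and Mir210, the microRNA known for its induction by low oxygen, at 8.42 on plastic and 8.75 on 32 kPa. None of the 10 had a fold beyond -0.38 to 0.02 between plastic and 32 kPa in the authors' deposited table. Gm7008, 4930589L23Rik, Gm20753 and 2700012I20Rik were in the 32 kPa list, and none of the 10 was in the plastic list. Of all noncoding RNA promoters with a mean level of 7 and over, 22.9% were listed on 32 kPa and 5.71% on plastic. With 10 regions, no departure from these shares can be read.

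Of 206 names in 6 lists of noncoding RNA genes with known roles, few had a promoter region high enough to be listed. The counts by list below stand against the background of 11.7% of all regions listed on plastic and 12.5% on 32 kPa, and with 2 to 12 genes a list high enough to be listed, no departure from it can be read from them. Among 31 nuclear, architectural and imprinting long noncoding RNAs, 12 had a region, 7 of them high enough to be listed. Of these 7, Tug1 and Airn were listed on plastic and Airn on 32 kPa. Kcnq1ot1, which silences an imprinted domain, had 6.22 on plastic and 6.12 on 32 kPa. Malat1, a nuclear speckle RNA, had 5.64 on plastic and 5.70 on 32 kPa at a region centred 979 bases upstream of its start. Neither was listed. Jpx, an activator of Xist, had 5.76 on plastic and 5.96 on 32 kPa, and Firre, which organises chromosome contacts, 5.10 on plastic and 5.03 on 32 kPa. Below the lowest listed level, the imprinted gene Meg3 stood at 3.95 on plastic and 3.96 on 32 kPa. Also below it, Pvt1, next to Myc, had 2 regions at 4.05 and 3.63 on plastic, against 3.90 and 3.12 on 32 kPa. Xist, the RNA of X inactivation, had 2.91 on plastic and 3.95 on 32 kPa, with an unadjusted p of 0.151 in the authors' deposited table. Lockd, Hotairm1 and 2900097C17Rik were in neither list.

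Of 24 small nucleolar RNA hosts and growth-arrest RNAs, 15 had a region. On plastic 12 reached the lowest listed level and 2 were listed, Dancr and Snhg3, against a background of 11.7% of regions. On 32 kPa 9 reached it and 0 were listed, against a background of 12.5%. The difference between these counts was not tested. Snhg8 had 6.85 on plastic and 7.21 on 32 kPa at its main region, and Zfas1 6.65 on plastic and 6.70 on 32 kPa. Snhg6, Snhg5, Snhg15, Snhg7, Epb41l4aos, Oip5os1, Snhg16, Snhg4, Snhg17, Snhg12 and Snhg20 were in neither list, and plastic minus 32 kPa ran from -0.35 to 0.34 over the list in the authors' deposited table.

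Of 24 microRNA host transcripts, 6 had a region, and on each stiff culture 4 reached the lowest listed level. Dnm3os was listed on plastic, and Dnm3os and Carmn on 32 kPa. Mir22hg, at 7.01 on plastic and 7.19 on 32 kPa, and Dleu2, host of miR-15a and miR-16-1, at 5.26 on plastic and 5.09 on 32 kPa, were in neither list. Mir100hg had 3 regions at 3.61 to 4.79 on plastic and 3.64 to 4.34 on 32 kPa, and Mir124a-1hg had 1 at 2.81 on plastic and 2.48 on 32 kPa.

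Of 57 microRNA genes studied in lung fibroblasts or fibrosis, 7 had a region annotated as promoter, which here means near the hairpin. On each stiff culture 5 reached the lowest listed level, and 0 were listed in either comparison. At backgrounds of 11.7% on plastic and 12.5% on 32 kPa, a count of 0 among 5 genes says nothing about this list. Mir210 had 7.41 on plastic and 7.74 on 32 kPa, Mirlet7i 6.59 on plastic and 6.66 on 32 kPa, and Mir22 6.22 on plastic and 6.12 on 32 kPa. Mir199a-1, the second gene of miR-199a, gives the same mature arms as the copy in Dnm3os. Its region had 5.53 on plastic and 5.68 on 32 kPa and was in neither list. Mir34a, a target of p53, had 5.52 on plastic and 5.38 on 32 kPa, and Mir34b and Mir30a did not reach the lowest listed level. Among all 80 microRNA genes with a region, 67 matched an entry in RefSeq, and 31 of the 81 regions of those genes touched the hairpin itself, 17 of them covering it whole.

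Of 30 RNAs of the basic RNA machinery, 11 had a region, and on each stiff culture 6 reached the lowest listed level. Rpph1 and Vaultrc5 were listed on plastic, where the background was 11.7% of regions, and Rmrp and Vaultrc5 on 32 kPa, where it was 12.5%. A pair among 6 genes is too few to read as a departure from these shares. Scarna2, Snord13 and Rnu12, a guide of small nuclear RNA modification, a small nucleolar RNA and the U12 RNA of the minor spliceosome, had levels of 5.16 to 5.41 on plastic and 5.29 to 5.47 on 32 kPa at their strongest regions and were in neither list. Terc, the telomerase RNA, had 3.93 on plastic and 3.76 on 32 kPa. Rprl3, Rnu11, Scarna17 and Rn4.5s were also below the lowest listed level.

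Of 40 RNAs divergent from or antisense to mesenchymal regulators, 5 had a region, and 2 were high enough to be listed, Foxd2os, at 6.69 on plastic and 6.59 on 32 kPa, and Sp3os, at 5.91 on plastic and 5.94 on 32 kPa. Neither was listed. Wt1os, beside the mesothelial regulator Wt1, had 3.68 on plastic and 4.60 on 32 kPa, with an unadjusted p of 0.096 in the authors' deposited table. Gm20554 and Emx2os were in neither list.

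**Figure D5:**
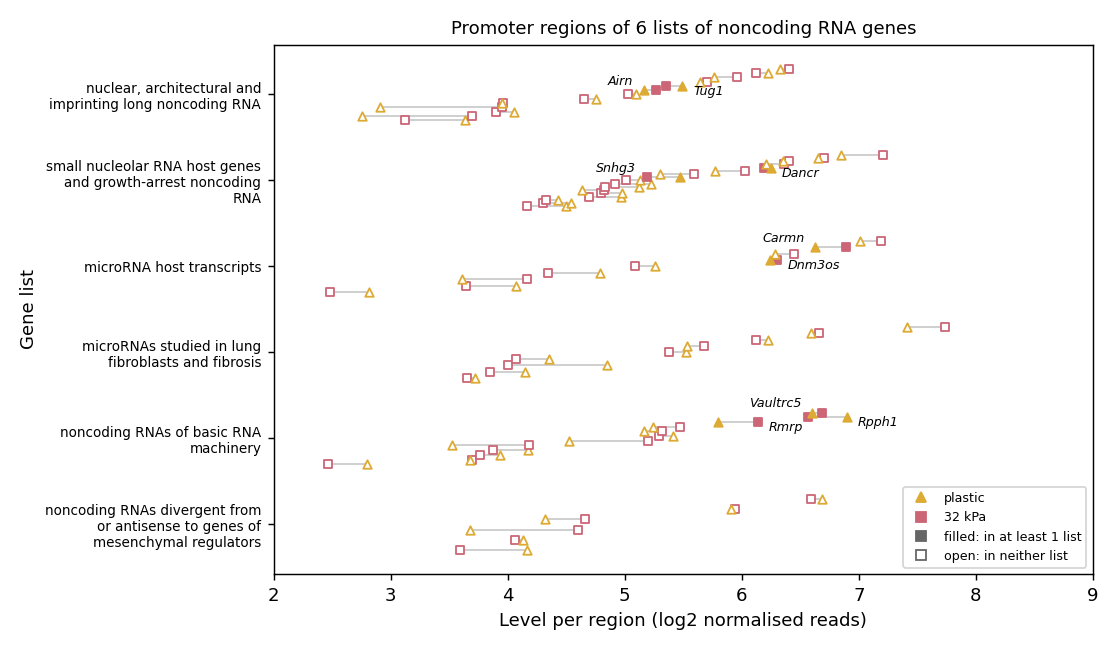
Level per region (horizontal axis, log2 normalised reads) on plastic (triangles) and 32 kPa (squares) for the promoter regions of 6 lists of noncoding RNA genes, 1 pair of symbols per region, filled and named where the region overlaps one listed as higher than 0.2 kPa. The named regions are Airn, Tug1, Dancr, Snhg3, Carmn, Dnm3os, Vaultrc5, Rpph1 and Rmrp, and each lies above 5 on both cultures.

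A RefSeq promoter of the same gene was found for 470 of the 671 regions, and for 47 of the 63 genes in either list. The 46 distinct promoters of listed genes had a median GC content of 60.8%, against 62.7% for 205 promoters of regions high enough for either list and in neither, and 52.7% for all 32851 promoters. The GC box GGGCGG was in 63.0% of the promoters of listed genes, 69.3% of the unlisted and 35.7% of all promoters. CCAAT was in 43.5%, 45.9% and 37.4% of the same groups, TGANTCA, the AP-1 motif, in 6.52%, 6.34% and 7.81%, and GGAATG, the TEAD motif, in 13.0%, 13.7% and 14.7%. CACGTG was in 6.52%, 13.7% and 7.15%, TATAAA in 10.9%, 5.85% and 13.6%, and TGACGTCA in 0.0%, 3.90% and 1.79%. The CArG box was in 1 of the 46, that of Dnm3os, in 3 of the 205 and in 1.63% of all promoters. Both strands were read, a promoter counts once for each motif and matches of different motifs may overlap. A match is a run of letters and not evidence that a factor was bound.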

How the data were processed

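Omni-ATAC-seq was measured in 6 libraries, 2 for each of plastic, 32 kPa and 0.2 kPa. BWA, Picard, MACS2, DiffBind and the build mm10 are named in the submitters' processing notes, without versions or settings. Per the file headers, the authors deposited levels as log2 means of normalised reads per culture, log2 folds, p-values and FDR values, with distances to the TSS as signed scores in bases and annotations in the layout of HOMER. Scaling, peak merging and any shift of reads for the transposase are not given in the sources used here. Intervals shared with the table of plastic against 32 kPa, whose headers name the cultures, gave the culture of each column in the tables of 0.2 kPa: 643 and 653 intervals, with levels equal or within 0.02. Starts in those tables count from 0 and were shifted by 1.

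Regions were chosen by the deposited annotation and gene type. Overlap with the lists was counted in Python at 1 base. The level on the culture missing from a table was read where a pair of regions covered 50% or more of each other. A level per 1000 bases is the level minus the log2 of the width in that unit. The share listed was taken over regions no lower on the stiff culture than the lowest one listed. No test was added to the authors' p-value and FDR, and no value per library was at hand. Protein-coding starts were those of RefSeq GRCm38.p6, with 20 regions on chromosome 18 not placed. Python 3.11.15, pandas 2.3.3, numpy 2.4.6, matplotlib 3.10.9 and bedtools 2.31.1 were used, and overlap was tested on simulated data.

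The regions, gene lists and comparisons were chosen with earlier results of these data known. Named were up to 20 regions of each list in order of fold, the 10 of highest mean level, the 3 of largest fold in each direction between plastic and 32 kPa, and genes of the 6 lists with a region, leaving out chromosome 18. Carmn, Vaultrc5, Snhg4, Epb41l4aos, Scarna17, Mir1938, Gm44505, Gm7467, Btbd19, A230056J06Rik, 4930483J18Rik and the regions with an unadjusted p under 0.05 fall outside this rule and were named after their values were seen, and 2 further chromosome 18 genes, Gm15328 and 4930563E18Rik, appear in a plot. Alternatives tried were an FDR of 0.01, other distances and gene types, a level minimum and a stricter overlap.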

Additional observations from a re-analysis of the deposited data

How the results depend on the processing

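The counts of noncoding RNA promoters listed on 32 kPa, on plastic and in both, 38, 40 and 14, were taken again under other settings. At an FDR of 0.01 they were 15, 13 and 5. Within 100 bases of the start they were 24, 24 and 9, and for levels at or above the median of the table on the stiffer culture 24, 22 and 6, settings that keep fewer regions by construction. Taking any annotation within 1000 bases of the start moved the median fold of plastic over 32 kPa to 0.0 and the level minimum moved it to -0.05, against -0.02. Limiting the gene type, leaving out small RNA types and asking for 50% overlap left each count within 1.5 times, as did leaving out genes that RefSeq calls protein-coding, a setting added after seeing the data. No setting gave a region past the FDR threshold between plastic and 32 kPa.

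No paired analysis was possible because the tables hold culture means and no library has a column of its own. For the same reason no setting leaves out a library. Depth per library is unknown, and for regions outside the lists a 0.2 kPa level was not analysed here.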

Other observations

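Regions assigned to noncoding RNA genes but lying outside promoters are given here as values. On plastic 217 of 257 listed regions of such genes lay outside promoters, 84.4%, with 131 intergenic and 79 in introns. On 32 kPa it was 178 of 216, 82.4%, with 95 intergenic and 76 in introns. Among all accessible regions, 92.8% of those of noncoding RNA genes and 80.4% overall lay outside promoters, so nothing particular to the lists is read from these shares. The median log2 fold of the regions outside promoters was 1.17 in both comparisons in the authors' deposited tables, against 1.15 on plastic and 1.16 on 32 kPa for listed regions of all genes outside promoters. The widest gap was at an intron of 4930556M19Rik, with 5.12 on 32 kPa and 3.24 on 0.2 kPa, a log2 fold of 1.88 and an FDR of 0.0061 in the authors' deposited table. An intron region of Lncenc1 had 6.60 on 32 kPa and 4.81 on 0.2 kPa, a log2 fold of 1.79 and an FDR of 0.000232 in the authors' deposited table. An intergenic region about 33.1 kb from 4930590A17Rik was in both lists, with log2 folds of 1.50 on plastic and 1.58 on 32 kPa in the authors' deposited tables. Malat1, whose promoter region was centred 979 bases upstream of the start and was in neither list, had 4 other regions listed on plastic. The authors' deposited table gives them log2 folds between 1.03 and 1.20. These regions are assigned to the nearest start and were named after their values were seen.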
